A study of Mus musculus with 15 samples.

Results

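The comparison of microvascular endothelial cells from mouse brain with those from mouse heart rests on 10 of the 15 arrays of the series, 5 brain pools and 5 heart pools identified by their titles. It covers all 19938 genes for which a probe set carries a single gene symbol, each read from its probe set with the highest mean over the arrays, so that no gene entered the comparison because of the difference it shows. The genes named and the lists counted below were chosen with earlier results of these data known. The other 5 arrays, from liver, entered the fit only through the shared estimate of the spread, and their levels are given where they place a gene relative to another vascular bed. The question is how far the endothelia of these organs, both of the continuous type, differ in the genes they express.

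All mice carried the Tie2-GFP transgene on an FVB background, in which the Tie2 promoter drives green fluorescent protein. This promoter is active in endothelium and is also known to be active in some blood cells. The animals were 8 to 12 weeks old, males and females in equal number, on standard chow and without any treatment. A brain sample pooled 6 mice and a heart sample 4 mice, while a liver sample pooled 2. Visible large vessels were removed, and both tissues were digested for 60 min at 37 °C. Brain was digested in crude collagenase with DNase, spun through albumin and exposed to 0.25% trypsin for 2 min, whereas heart was digested in collagenase I. Fluorescent cells were sorted, and 5 ng of RNA per pool was amplified and hybridised to an Affymetrix mouse array. Tissue, digestion and pool size differ together between the groups and cannot be told apart. Nothing beyond the numbered titles describes the pools as independent, so the p-values measure the spread between these samples.

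Endothelial cells line all blood vessels, and capillaries take on properties of the organ they supply. Brain capillaries form the blood-brain barrier: continuous tight junctions and few vesicles close the passive routes, and carriers for glucose, amino acids, lactate and hormones, together with ATP-driven efflux pumps, select what passes. Wnt and norrin ligands from neural cells act through beta-catenin to induce and keep this state. Heart capillaries are also continuous, but they supply a muscle that burns mainly fatty acids, and they take up lipid released from lipoproteins at their surface and hand it to the cardiomyocytes.

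Values are log2 signals, so a difference of 1 is a 2-fold change. Array medians over the 19938 genes lay between 6.05 and 6.11 in both tissues. Pearson correlations across genes ran from 0.986 to 0.991 between brain arrays, from 0.978 to 0.991 between heart arrays and from 0.948 to 0.960 between a brain and a heart array. The first principal component of the 10 arrays held 64.6% of the variance and separated the tissues, and the component after it held 9.5% and set heart array 1 apart; the next held 5.3% and set brain array 1 apart. The 34 pan-endothelial genes had nearly the same list mean in brain, 10.03 ± 0.11 (SD, n = 5), and in heart, 10.05 ± 0.06 (SD, n = 5). Single members differed, with 8 called higher in each direction, and the means do not measure how pure the samples are. The files hold no detection calls, so a low level cannot be told from background, and a fold against it is that of the measured signals.

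Cells of the surrounding tissue were unevenly represented. Of 18 cardiomyocyte markers 16 were higher in heart, where the list mean was 9.01, 8.07, 8.63, 7.52 and 7.59 on arrays 1 to 5, against 5.80 to 5.97 in brain. Myl2, the ventricular myosin light chain, read 11.40, 10.56, 11.01, 9.73 and 9.74 in heart and 4.32 to 4.56 in brain. Arrays 1 and 3 were the highest heart arrays for this list, and the tissues did not overlap. Of 13 fibroblast markers 8 were higher in heart, with list means of 6.46 to 7.53 against 5.63 to 6.02 in brain. Among 15 markers of pericytes and smooth muscle, 5 were higher in heart, with list means of 7.86, 7.16, 7.59, 7.09 and 6.54 on heart arrays 1 to 5 against 7.63, 6.28, 6.63, 6.76 and 6.04 on brain arrays 1 to 5. Among them was Rgs5, higher by 1.73 (adjusted p = 0.0169), a call lost without brain array 5 (adjusted p = 0.0504), and the count of 5 fell to 3 without that array or without heart arrays 1 and 3. In the brain arrays the markers of neurons had a list mean of 5.05 to 5.16 and those of oligodendrocytes 5.22 to 5.36, against 4.98 to 5.14 and 5.35 to 5.44 in heart. Of 12 astrocyte markers 1 was higher in brain and 4 in heart, with list means of 5.849 to 6.261 in brain and 6.035 to 6.137 in heart. The heart count was 2 without brain array 5 and 1 without heart arrays 1 and 3. The brain count was 0 without brain array 1 or 2 or any single heart array. Of 10 choroid plexus and ependymal markers 5 were higher in brain, a count of 3 without heart array 2 or without heart arrays 1 and 3, and the list mean was 7.44, 6.77, 6.80, 6.75 and 6.67 on brain arrays 1 to 5 against 5.66 to 5.78 in heart. Ttr, which encodes the thyroid hormone carrier transthyretin and is abundant in choroid plexus, read 12.72, 12.78, 12.58, 12.26 and 12.09 in brain and 5.07 to 5.73 in heart. The median difference of this list, 0.42, was below its mean difference of 1.17, and 5 members were called in neither direction. In such bulk samples fewer cells of a type and less RNA per cell cannot be told apart. Of 15 microglia and macrophage markers 1, Cd14, was higher in brain by 1.11, a count of 2 without heart array 2, and 0 in heart (0 at an unadjusted p under 0.05). When the 10 brain and heart arrays alone were fitted, Lyz2, a lysozyme of macrophages, was called higher in heart by 1.06 (adjusted p = 0.00618 against 0.281). In the same fit Cx3cr1, another marker on this list, was called higher in brain by 0.51 (limma, adjusted p = 0.0362 against 0.0595). Of 30 markers of lymphocytes, granulocytes, red cells and platelets 1, Pf4, was higher in heart by 1.05. The part of these cells in the results that follow was not tested except by leaving out arrays.

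**Figure D1:**
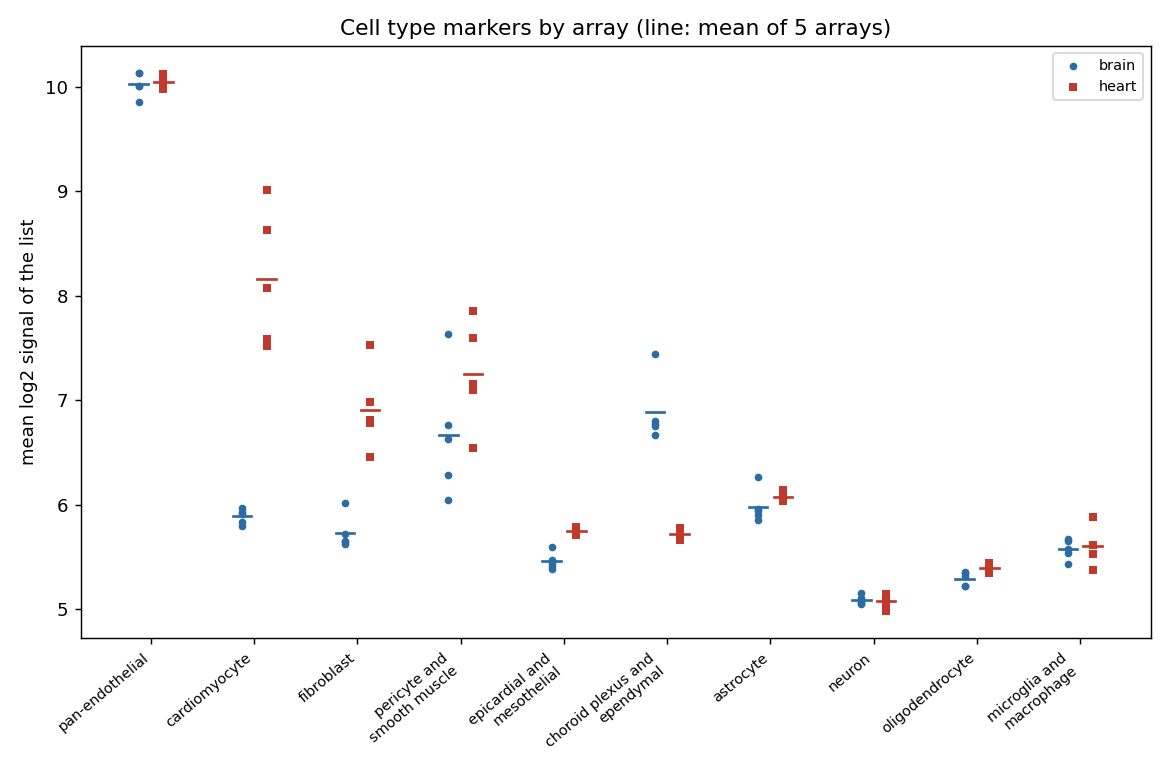
Mean log2 signal of the genes on each marker list in the 5 brain arrays (circles) and the 5 heart arrays (squares), with a line at the mean of each tissue. The pan-endothelial means lie together near 10.03 and 10.05, whereas the cardiomyocyte mean lies between 7.52 and 9.01 in heart and does not exceed 5.97 in brain.

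In the sorted samples 1652 genes were higher in brain than in heart, 8.29% of those tested, and 1418 were higher in heart, 7.11% (limma, Benjamini-Hochberg adjusted p under 0.05). These counts include the called markers of other cell types. The shares of 8.29% and 7.11% are the background for every list count in this report, and no list was tested against them. Of these genes 422 (2.12%) were higher in brain and 347 (1.74%) higher in heart by at least 1 on the log2 scale. Without any model, every brain array lay above every heart array for 1324 genes (6.64%) and every heart array above every brain array for 1230 genes (6.17%). The large differences were more often toward brain: 36 called genes were higher in brain by 4 or more and 16 higher in heart. Most measured signals differed little, since the median absolute difference was 0.13 and 14461 genes (72.5%) had a 95% interval within ±0.5. No filter on level was applied, so genes at background in both tissues count among these. The median difference of all genes, brain minus heart, was -0.03. Of the 422 genes higher in brain, 343 (81.3%) had a liver level nearer to the heart level. Of the 347 genes higher in heart, 198 (57.1%) had a liver level nearer to the brain level.

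**Figure D2:**
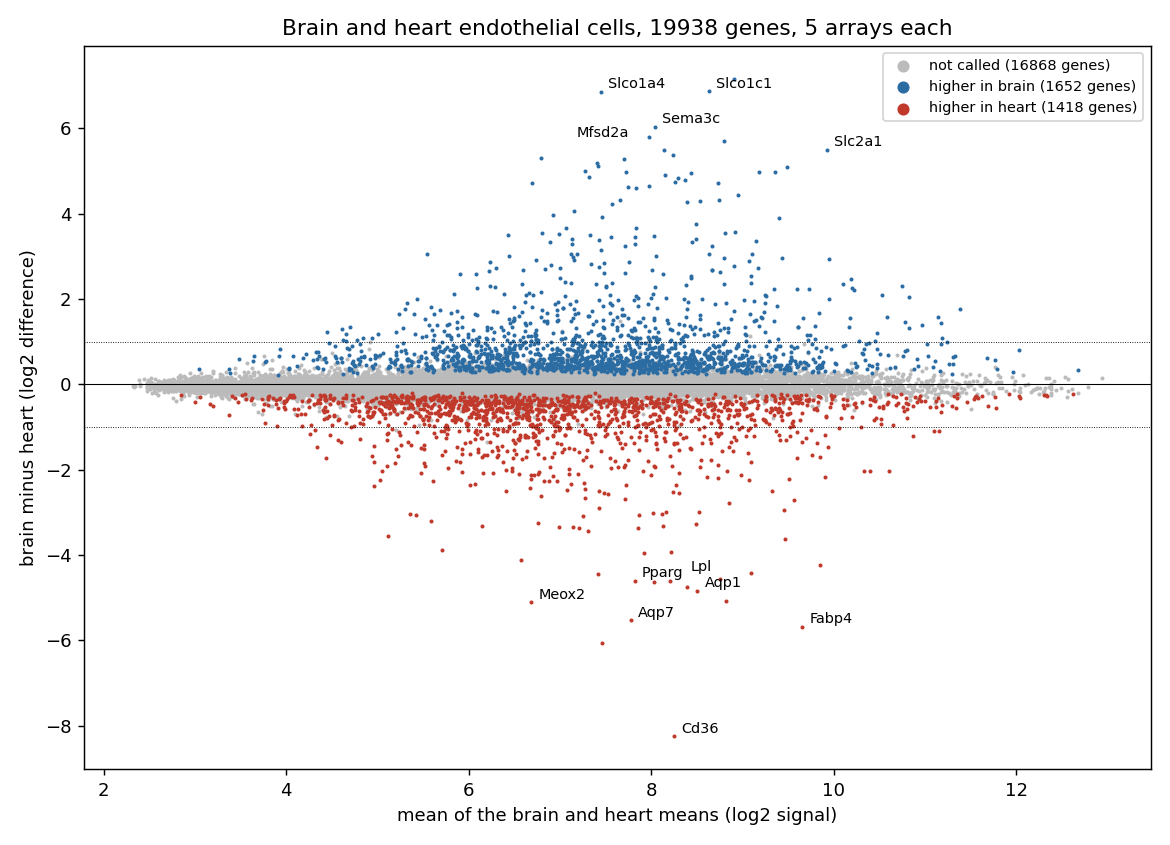
Brain minus heart difference (log2) of each of the 19938 genes against the mean of both tissue means (log2 signal), with genes higher in brain in blue, genes higher in heart in red and uncalled genes in grey, and dotted lines at a difference of 1 in either direction. Cd36 stands alone at the foot of the plot at -8.25, and the organic anion carriers Slco1c1 and Slco1a4 lie at its top with the choroid plexus marker Ttr, at 6.87, 6.86 and 7.16.

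Among genes on no marker list and with no overlap between the arrays, the 15 with the largest differences toward brain held 6 carriers, 1 tight junction gene and 8 genes of other kinds. Slco1c1, a carrier of thyroid hormones and organic anions, read 12.09, 12.08, 12.02, 12.02 and 12.10 on brain arrays 1 to 5 and 5.44, 4.93, 5.21, 5.36 and 5.04 on heart arrays 1 to 5. The groups lay far apart, with a difference of 6.87 (117-fold, SE 0.10, adjusted p = 1.84e-17). Slco1a4, an organic anion carrier encoded near it on the same chromosome, differed by 6.86 (116-fold). Mfsd2a, which carries lysophosphatidylcholine with docosahexaenoic acid and is known to restrain vesicle transport in brain endothelium, read 11.52, 10.95, 10.53, 10.54 and 10.81 in brain and 4.86, 4.94, 5.34, 5.15 and 5.08 in heart. The difference was 5.79 (55.5-fold). Slc22a8, an organic anion transporter, differed by 5.38 and Slc40a1, the iron exporter ferroportin, by 5.19. Slc40a1 was the only one of the 15 leading brain genes with a liver mean above its brain mean, 10.37 against brain arrays of 9.61 to 10.30. Sema3c, a secreted semaphorin, read 11.03, 10.84, 10.86, 11.24 and 11.32 in brain and 5.10, 5.00, 5.11, 5.08 and 4.81 in heart (65.8-fold). Ptn, the growth factor pleiotrophin, differed by 5.70 (51.9-fold) and Bche, which breaks down choline esters, by 5.30. The membrane proteins Itm2a and Tmeff1 differed by 5.10 and 4.99, the gastrokine Gkn3 by 5.28, Ccdc141 by 5.49 and Pglyrp1, which binds bacterial cell walls, by 4.97. Slc2a1 and Ocln, described with their families, completed the 15 leading genes. All 30 leading genes of both directions, chosen for large differences without overlap, kept their call under each of the 20 alternative analyses.

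**Figure D3:**
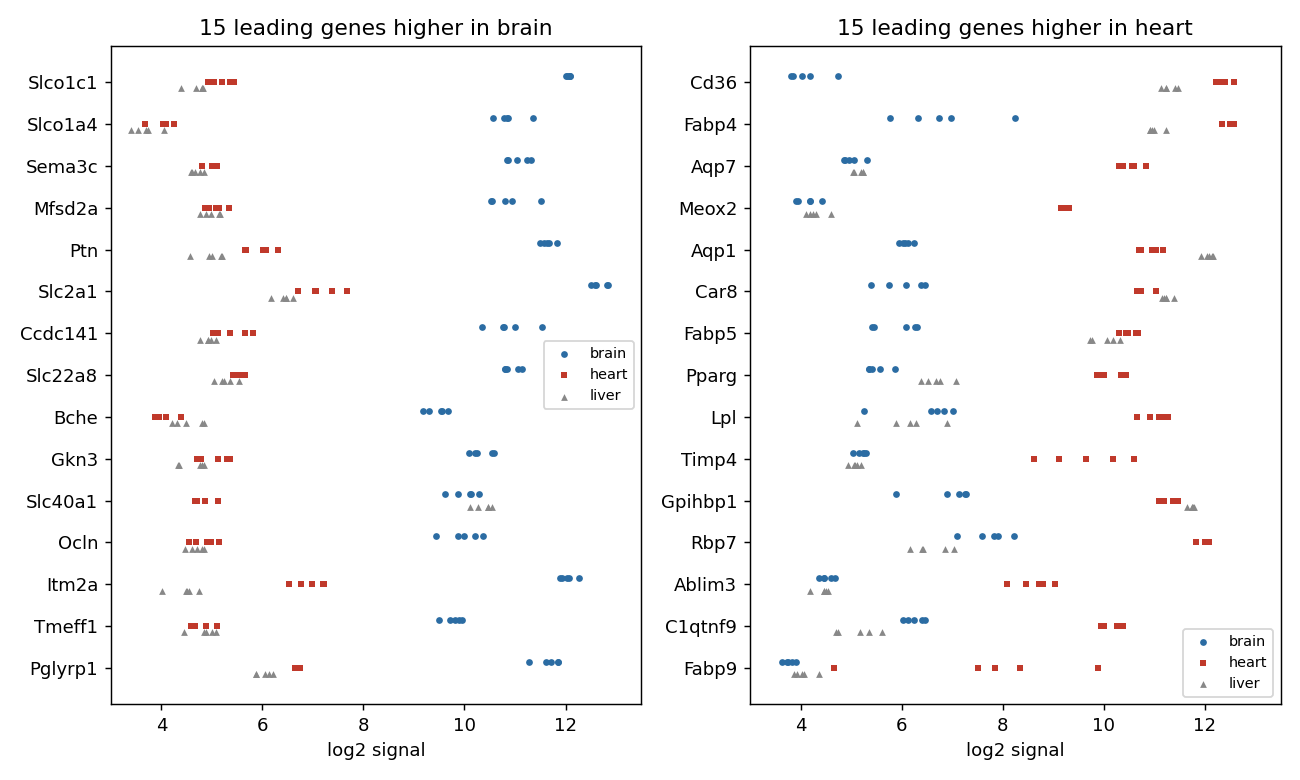
Log2 signal of the 15 genes that led in each direction, by array, in brain (circles), heart (squares) and liver (triangles). The 30 genes were chosen for having no overlap between brain and heart, and Fabp9 spreads over the heart arrays from 4.67 to 9.88.

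Several carriers of nutrients were also higher in brain. Of 9 glucose and monocarboxylate carriers 3 were higher in brain and 0 higher in heart (2 at an unadjusted p under 0.05). Slc2a1, the glucose transporter GLUT1, read 12.83, 12.84, 12.51, 12.60 and 12.58 in brain and 7.68, 6.71, 7.37, 7.07 and 7.04 in heart (45.2-fold). Slc16a1, which carries lactate and ketone bodies, was higher by 4.32, and Slc16a4 of the same family by 3.37. The other 6, among them Slc2a3 and Slc2a4, were not called. Of 22 amino acid transporters 10 were higher in brain and 1 in heart, with a list median of 0.34 against -0.03 for all genes. Slc7a5, the light chain of the large neutral amino acid carrier, read 12.04, 11.65, 11.74, 11.98 and 11.76 in brain and 8.20, 6.40, 6.74, 6.99 and 6.02 in heart, where array 1 was the highest. The difference was 4.96 (31.2-fold, SE 0.27). The glutamine carriers Slc38a3 and Slc38a5 were higher by 4.91 and 4.63, the cationic amino acid carriers Slc7a3 and Slc7a1 by 3.54 and 2.77, and Slc1a1, a glutamate carrier, by 3.06. The single member higher in heart, Slc1a5 at 0.47, lost its call without brain array 2, brain array 5 or heart array 1, and was named after its values were seen. Of 13 transporters of vitamins, choline, nucleosides and creatine 4 were higher in brain, led by Flvcr2 at 3.05, and 2 in heart, Slc44a2 and Slc29a1, with 1 left in heart without brain array 3 or 5 or heart array 1, 3 or 5. Of 8 organic anion and thyroid hormone carriers 4 were higher in brain, and Slco3a1 was higher in heart by 1.16.

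Of 13 ABC transporters, pumps that use ATP to move drugs and lipids out of cells, 5 were higher in brain and 3 in heart. The shares over all genes were 8.29% and 7.11%. The mouse has a pair of P-glycoprotein genes, and they differed in opposite directions. Abcb1a read 12.29, 12.21, 12.26, 12.28 and 12.33 in brain and 10.61, 10.50, 10.60, 10.23 and 10.54 in heart, a difference of 1.78 (adjusted p = 1.57e-10). Abcb1b read 6.19, 6.24, 6.10, 5.82 and 6.31 in brain and 7.91, 7.46, 8.03, 7.64 and 7.69 in heart, higher in heart by 1.62 (adjusted p = 5.1e-07). The arrays did not overlap for either gene. These genes are close paralogs, and how far their probes separate them is not given in the sources used here. Abcc4 and Abcg2, both efflux pumps of the blood-brain barrier, were higher in brain by 2.65 and 1.35.

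Of 19 tight junction genes 6 were higher in brain and 4 in heart, and the list median was -0.04. Ocln, which encodes occludin, read 9.99, 10.37, 9.87, 9.45 and 10.21 in brain and 4.98, 4.90, 4.55, 4.69 and 5.14 in heart (34.9-fold). Marveld2, the related tricellulin, was higher in brain by 3.53, and Lsr, a partner of tricellulin at corners between cells, by 2.35. Cldn5, the main claudin of endothelium, was present in both tissues, at 11.52, 11.60, 11.20, 10.65 and 11.37 in brain and 9.32, 9.02, 8.92, 8.65 and 8.71 in heart, and differed by 2.35 (5.09-fold). Jam3 went the other way and was higher in heart by 2.09. Of 18 genes of caveolae, diaphragms and transcytosis 5 were higher in each direction. Aqp1, the water channel of peripheral capillaries, was higher in heart by 4.84 (28.6-fold), and Ehd2, a protein of the caveolar neck, by 1.37. The liver mean of Aqp1, 12.07, was above its heart mean of 10.92. Brain was higher for the transferrin receptor Tfrc by 4.45, for the lipoprotein receptor Lrp8 by 2.98 and for the insulin receptor Insr by 1.57. Cav1, the coat protein of caveolae, differed by 1.10 toward heart and Plvap, a component of diaphragms, by 0.14 toward brain (adjusted p = 0.623); both were named after their values were seen.

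Among 27 genes of the Wnt and norrin pathways, 15 were higher in brain and 1, Ccnd1, in heart, where the count was 2 without brain array 1 or 4 or heart array 4, and the list median was 0.73. Among target genes, Lef1, a partner of beta-catenin on DNA, read 10.93, 11.18, 10.84, 10.81 and 10.84 in brain and 5.79, 5.75, 6.05, 6.01 and 6.20 in heart. The difference of 4.96 (31.1-fold, SE 0.13, adjusted p = 8.37e-15) was many times the spread within either tissue. Apcdd1, an inhibitor of the pathway and one of its targets, differed by 4.75 (26.9-fold), and Axin2, a feedback inhibitor, by 2.61. Tnfrsf19 was higher by 2.81 and Reck, a coreceptor for Wnt7 ligands, by 3.41. The norrin receptor Fzd4 and its partner Tspan12 read 8.44 and 10.24 in brain and 8.67 and 10.45 in heart and were not called (adjusted p = 0.106 and 0.319, limma). Ctnnb1, beta-catenin itself, had means of 10.80 and 10.70. Fzd4, Tspan12 and Ctnnb1 were named after their values were seen. The letters CTTTGAA or CTTTGAT, a motif of the TCF family, were searched for in promoter windows of 300 bases from RefSeq. Of the 15 genes higher in brain, 7 had a promoter there and 1, Tnfrsf19, held a match in any of its windows. Of the 11 uncalled genes 8 had a promoter and 0 held a match. At least 1 match was held by 8.65% of all 32851 single windows.

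Of 55 endothelial transcription factors 18 were higher in brain and 16 in heart. Of 9 forkhead genes on this list 6 were higher in brain, 0 in heart and 3 not called, against 8.29% and 7.11% of all genes; this subset was singled out after its values were seen. Foxf2 read 7.83, 8.78, 7.96, 8.72 and 7.59 in brain and 4.53, 4.58, 4.66, 4.81 and 4.81 in heart (11.3-fold). Foxf1 was higher by 4.30 and Foxc1 by 2.16, and Foxq1, named after its values were seen, by 1.20. Foxq1, Foxf2 and Foxc1 are consecutive protein-coding genes on 1 chromosome in the RefSeq order. On the heart side Meox2, a homeobox factor, read 9.24, 9.31, 9.24, 9.24 and 9.16 in heart and 3.90, 4.18, 3.95, 4.43 and 4.19 in brain, a difference of 5.11 (34.5-fold, SE 0.10) with hardly any spread among the heart arrays. Its liver mean of 4.29 was close to the brain mean. Pparg, the nuclear receptor that controls lipid storage genes, was higher in heart by 4.60 (24.3-fold), and Tcf15, a partner of Meox2 in heart endothelium, by 2.13.

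Hox genes, which record position along the body axis, were called higher in heart in 8 of 28 cases and higher in brain in 0 (0 also at an unadjusted p under 0.05). Hoxb4 read 7.24, 7.09, 7.14, 7.03 and 7.50 in heart and 5.86, 5.82, 5.89, 5.65 and 5.89 in brain, and the groups did not overlap. Hoxa5 was higher by 1.13 and Hoxb5 by 0.91. When a mean of at least 6 in brain or heart was required, 4 members were called higher in heart.

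Genes of iron, zinc and metallothionein handling were higher in brain in 9 of 17 cases and higher in heart in 1, Slc39a14, with a list median of 0.44. Mt1 and Mt2 are neighbouring genes for metallothioneins, small proteins that bind zinc and copper, and Slc30a1 exports zinc. The metal-responsive factor MTF1 is known to act on all 3 through metal response elements, and their promoters are shown because these genes differ in the same direction. Each run covers 300 bases, most of them before the start of the gene, on the plus strand of GRCm38.p6 (RefSeq), with matches to the letters TGCACNC or TGCGCNC on either strand in capitals.
Mt1, chr8:94178839-94179138: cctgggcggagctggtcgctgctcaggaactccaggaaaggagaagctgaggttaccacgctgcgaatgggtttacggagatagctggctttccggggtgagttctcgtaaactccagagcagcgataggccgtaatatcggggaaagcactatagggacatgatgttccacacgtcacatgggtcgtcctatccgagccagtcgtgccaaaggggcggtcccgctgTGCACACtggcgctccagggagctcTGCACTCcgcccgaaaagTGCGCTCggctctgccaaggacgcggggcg
Mt2, chr8:94172368-94172667: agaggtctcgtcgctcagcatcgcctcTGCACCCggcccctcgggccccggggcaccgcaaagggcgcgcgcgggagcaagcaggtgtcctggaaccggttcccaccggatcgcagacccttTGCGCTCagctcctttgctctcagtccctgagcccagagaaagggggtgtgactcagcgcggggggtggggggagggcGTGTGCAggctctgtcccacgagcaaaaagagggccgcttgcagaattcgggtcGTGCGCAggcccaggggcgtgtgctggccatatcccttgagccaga
Slc30a1, chr1:191906531-191906830: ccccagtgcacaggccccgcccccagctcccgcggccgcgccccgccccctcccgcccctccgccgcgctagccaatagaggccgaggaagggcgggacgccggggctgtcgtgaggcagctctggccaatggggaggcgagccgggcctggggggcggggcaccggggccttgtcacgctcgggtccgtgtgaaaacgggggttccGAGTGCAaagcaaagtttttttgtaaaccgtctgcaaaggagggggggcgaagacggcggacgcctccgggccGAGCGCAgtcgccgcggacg
The windows held 3, 4 and 2 matches. At least 1 match was held by 25.7% of the 32851 promoters of the RefSeq set, at least 2 by 7.11%, at least 3 by 1.97% and at least 4 by 0.517%. Of the 9 list members higher in brain, 8 had a promoter in the set and 5 held a match in any of their windows. Of the 7 uncalled members 5 had a promoter and 2, Mt3 and Slc30a10, held a match. The matches are a description of these letters only.

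Mt2 read 10.73, 10.48, 10.48, 11.11 and 10.73 in brain and 8.09, 4.96, 6.00, 5.55 and 4.75 in heart, a difference of 4.84 (28.6-fold, SE 0.43, adjusted p = 1.87e-07). Mt1 read 10.31, 10.18, 10.21, 10.50 and 10.21 in brain and 8.70, 6.61, 7.50, 7.04 and 6.73 in heart, a difference of 2.97 (7.84-fold). The brain arrays were even for both genes, and heart array 1 was the highest heart array for both without reaching the brain level. Liver means were 10.69 for Mt2 and 10.85 for Mt1, so for these genes heart was the low tissue. Slc30a1, named after its values were seen, differed by 1.06 (SE 0.10). Tfrc, which takes up iron bound to transferrin, read 11.27, 11.06, 11.12, 11.01 and 11.38 in brain and 9.06, 6.27, 6.54, 6.33 and 5.41 in heart, where array 1 again stood above the other heart arrays, and differed by 4.45 (21.8-fold). Slc39a8, a zinc importer, was higher in brain by 3.67 and Cp, the ferroxidase ceruloplasmin, by 2.68. Tfrc, Cp and Slc40a1 serve the uptake, oxidation and export of iron, and all 3 were higher in brain, while Slc39a14, which imports zinc and iron, was higher in heart by 0.76.

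The heart side was led by genes of fatty acid uptake. Cd36, the fatty acid translocase, had the largest measured difference of all genes: it read 12.36, 12.57, 12.23, 12.30 and 12.40 on heart arrays 1 to 5 and 4.03, 3.85, 4.20, 4.74 and 3.81 on brain arrays 1 to 5. The difference was 8.25 (304-fold, SE 0.14, adjusted p = 6.31e-17), and liver was near heart at 11.30. The brain level cannot be told from background, so the fold is that of the measured signals only. Aqp7, a channel for glycerol and water, read 10.31, 10.60, 10.56, 10.38 and 10.84 in heart and 4.87, 5.06, 5.32, 4.95 and 4.87 in brain, a difference of 5.52 (46-fold). Its liver mean of 5.16 was at the brain level, unlike that of Cd36. Promoter windows of these genes are shown because Pparg, known to act on both, was itself higher in heart. Each run covers 300 bases on the minus strand of GRCm38.p6 (RefSeq), with matches to AGGTCA, the core letters bound by nuclear receptors, on either strand in capitals. RefSeq gives a pair of overlapping windows for Aqp7, of which the one with more matches is shown.
Cd36, chr5:17835847-17836146: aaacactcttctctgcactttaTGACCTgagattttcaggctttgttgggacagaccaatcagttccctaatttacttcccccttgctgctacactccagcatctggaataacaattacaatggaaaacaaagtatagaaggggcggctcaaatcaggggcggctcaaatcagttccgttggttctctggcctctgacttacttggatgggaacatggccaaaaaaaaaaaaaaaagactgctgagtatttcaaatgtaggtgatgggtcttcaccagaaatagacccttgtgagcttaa
Aqp7, chr4:41047913-41048212: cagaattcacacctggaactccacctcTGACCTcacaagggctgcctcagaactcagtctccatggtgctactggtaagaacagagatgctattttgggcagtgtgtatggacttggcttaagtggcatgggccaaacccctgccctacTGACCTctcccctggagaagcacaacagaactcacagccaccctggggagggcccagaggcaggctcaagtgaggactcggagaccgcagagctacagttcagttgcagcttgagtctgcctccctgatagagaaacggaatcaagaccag
The windows held 1 and 2 matches, and at least 1 was held by 16.3% of all promoters of the RefSeq set and at least 2 by 1.81%. The other Aqp7 window held 1 match. These shares count single windows, whereas in the next counts a gene held a match if any of its windows did. Among the 12 uptake genes higher in heart, 7 had a promoter in the set and 3 of these, Aqp7, Cd36 and Pparg, held a match, as did Plin2 among the 7 of 10 uncalled genes with a promoter.

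Of the 23 uptake genes measured, 12 were higher in heart and 1, Ppard, in brain, and the list median was -0.61. Fabp4, a cytosolic fatty acid binding protein, read 12.53, 12.58, 12.51, 12.51 and 12.33 in heart and 6.74, 6.32, 6.98, 8.25 and 5.77 in brain (51.3-fold). The heart arrays were even, whereas the brain arrays spread widely with array 4 the highest. Fabp5 was higher in heart by 4.61. Lpl, which releases fatty acids from lipoproteins, was higher by 4.55 and Gpihbp1, which holds that enzyme at the capillary surface, by 4.42. Rbp7, a retinol binding protein and a target of Pparg in endothelium, was higher by 4.23. Fabp3, the binding protein of cardiac muscle, read 9.20, 7.24, 8.62, 6.28 and 6.11 in heart, highest on arrays 1 and 3 like the cardiomyocyte list, and 5.19 to 5.79 in brain. Cd36, Fabp4, Aqp7, Meox2, Fabp5, Pparg, Lpl, Gpihbp1 and Rbp7 stayed called without heart arrays 1 and 3. Heart arrays 2, 4 and 5 still had cardiomyocyte list means of 8.07, 7.52 and 7.59 against 5.80 to 5.97 in brain, so the part of that cell type was not tested. Of 7 adipocyte markers 0 were called in either direction (1 in heart at an unadjusted p under 0.05), but Plin1 was called higher in heart without heart array 1 (adjusted p = 0.0445) and without heart arrays 1 and 3 (adjusted p = 0.0429), and their list mean was 5.18 to 5.35 in heart and 5.07 to 5.21 in brain. The fatty acid transport proteins Slc27a1, Slc27a3 and Slc27a4 were not called, with differences from -0.04 to 0.24.

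The enzymes that burn fatty acids did not follow the uptake genes. Of 20 fatty acid oxidation enzymes 9 were higher in brain and 0 in heart (1 at an unadjusted p under 0.05), with a list median of 0.41. Cpt1a, the liver-type carnitine palmitoyltransferase that admits fatty acids to mitochondria, read 9.26, 8.59, 8.99, 9.03 and 8.96 in brain and 7.88, 7.55, 8.13, 7.89 and 7.68 in heart (2.2-fold, adjusted p = 6.12e-05). Every brain array lay above every heart array. Eci2 was higher in brain by 1.01, the carnitine carrier Slc25a20 by 0.86, Hadh by 0.83, Cpt2 by 0.80 and Etfb by 0.64. Of 15 glycolysis enzymes 3 were higher in brain, Tpi1, Pfkl and Pkm, by at most 0.79, and 0 in heart (3 at an unadjusted p under 0.05, and 1 called without brain array 2). Of 23 genes of the respiratory chain and ATP synthase 0 were called in either direction (1 in each direction at an unadjusted p under 0.05), and leaving out brain array 4 gave 1 higher in brain and leaving out brain array 5 gave 1 higher in heart. Their differences lay between -0.28 and 0.31, so that intervals for the single genes stayed within -0.49 and 0.59.

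**Figure D4:**
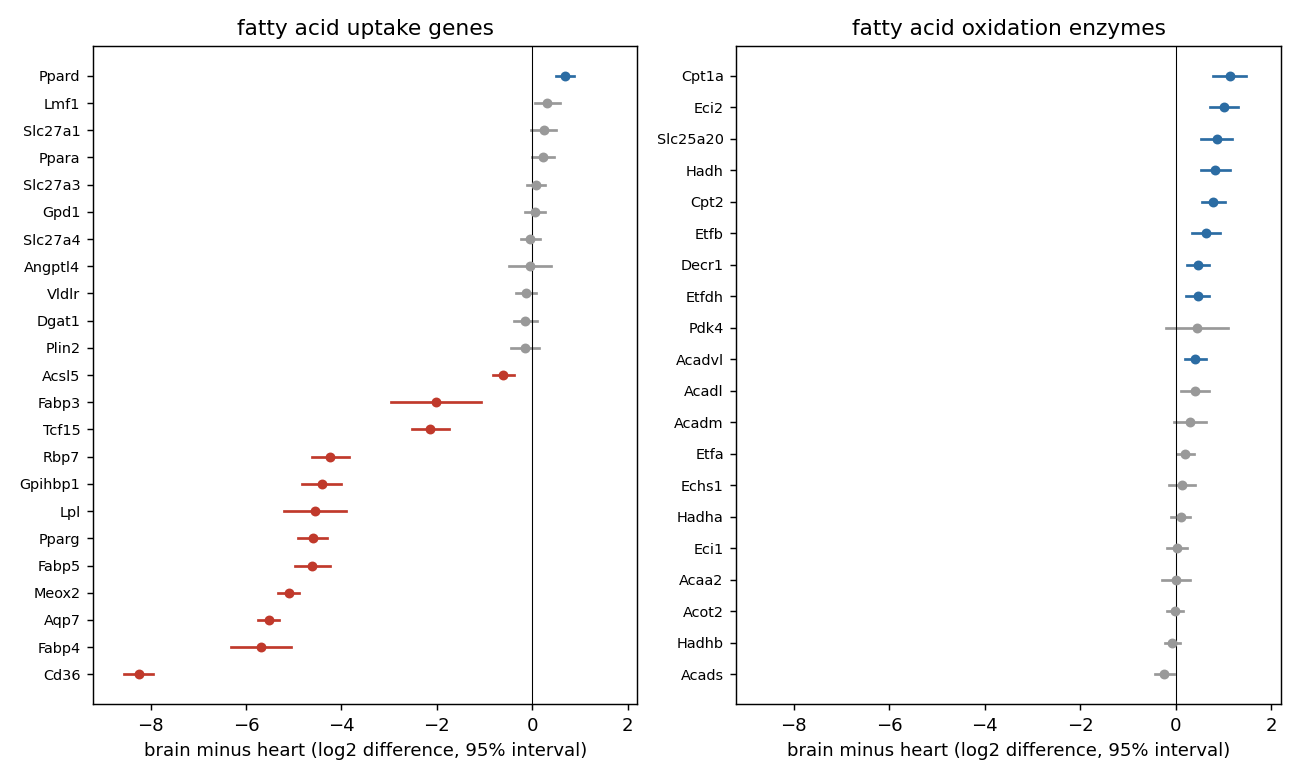
Brain minus heart difference (log2) with its 95% interval for each measured fatty acid uptake gene (left) and fatty acid oxidation enzyme (right), with genes higher in heart in red, genes higher in brain in blue and uncalled genes in grey. Uptake genes reach -8.25 toward heart, whereas no oxidation enzyme is called higher in heart and Cpt1a is highest toward brain at 1.14.

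Other genes led toward heart. Timp4, an inhibitor of matrix proteases, was higher by 4.43 (21.6-fold), with heart values from 8.63 to 10.59 and its highest readings on arrays 1 and 3. Car8, a catalytically inactive member of the carbonic anhydrase family, was higher by 4.75, and its liver mean of 11.24 was above the heart mean of 10.77. Ablim3, an actin binding protein, differed by 4.11 and C1qtnf9, a secreted relative of adiponectin, by 3.93. Fabp9 lies between Pmp2 and Fabp4 in the RefSeq gene order, in the cluster Fabp5, Pmp2, Fabp9, Fabp4. It read 9.88, 7.51, 8.35, 7.85 and 4.67 in heart and 3.72, 3.90, 3.75, 3.62 and 3.83 in brain, and Pmp2 read 9.33, 5.30, 6.38, 5.39 and 4.41 and 3.67 to 3.98. Both genes were high on heart array 1 and low on heart array 5, whereas Fabp4 stayed between 12.33 and 12.58 and Fabp5 between 10.30 and 10.68 in heart.

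Vessel matrix differed mainly toward heart. Of 25 basement membrane genes 13 were higher in heart and 4 in brain, with a list median of -0.31. Lamb1, a laminin beta chain, read 9.37, 9.78, 9.08, 9.53 and 9.74 in heart and 7.40, 6.59, 7.07, 6.98 and 6.87 in brain (5.73-fold). Hspg2, the proteoglycan perlecan, was higher in heart by 1.24, the laminin chain Lama4 by 1.22 and nidogen, Nid1, by 1.17. Brain was higher for fibronectin, Fn1, at 11.63, 11.68, 11.58, 11.54 and 11.46 against 9.86, 9.51, 9.25, 9.32 and 9.51 in heart, and for agrin, Agrn, by 1.07. Fibroblasts and pericytes also make these proteins, their list means were 6.46 to 7.53 and 6.54 to 7.86 in heart against 5.63 to 6.02 and 6.04 to 7.63 in brain, and their part in this list was not tested.

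Growth factor and guidance genes were split. Of 20 VEGF, angiopoietin and apelin genes 5 were higher in brain and 8 in heart. Aplnr, the apelin receptor, read 9.96, 10.85, 10.45, 10.75 and 10.96 in heart and 9.21, 8.83, 8.91, 8.56 and 9.18 in brain, a difference of 1.65, and the neuropilins Nrp2 and Nrp1 were higher in heart by 1.07 and 0.95. Vegfd, a ligand of the VEGF family, was higher in brain by 2.09, and Angpt1 by 1.35. Of 34 TGF-beta and BMP genes 9 were higher in brain, led by the ligand Tgfb2 at 2.88, and 6 in heart, led by the ligand Bmp6 at 1.80. Of 39 semaphorins, plexins, Slit, Robo, netrin and Eph genes 6 were higher in brain and 12 in heart. After Sema3c the largest difference on this list was that of Ephb1, higher in heart by 1.62. Of 13 insulin and IGF genes the receptors Igf1r and Insr were higher in brain, by 2.72 and 1.57. Igf2r, Igfbp5, Igf1 and Igf2 were higher in heart, by 1.91, 1.34, 1.17 and 1.03.

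Markers of vessel type did not move as a block toward one tissue in the arterial list. Among 30 genes of Notch signalling and arterial identity, 7 were higher in brain and 5 in heart: Gkn3 differed by 5.28 and the kinase Bmx by 2.38 toward brain, and Cxcr4 by 1.76, Efnb2 by 0.99 and Nrp1 by 0.95 toward heart. Of 16 venous and post-capillary genes 11 were higher in brain and 3 in heart, and the list median was 1.08. Vwf, von Willebrand factor, read 9.71, 10.03, 9.94, 9.39 and 9.83 in brain and 8.27, 7.68, 7.64, 7.95 and 7.78 in heart. Vcam1, an adhesion molecule for leukocytes, was higher in brain by 1.90, Ch25h, the cholesterol hydroxylase, by 2.71 and Adgrg6 by 2.37. Slc38a5 and Lcn2 also sit on this list, and the call of Lcn2 was lost without brain array 4, heart array 2 or heart array 4. Of 34 pan-endothelial genes 8 were higher in each direction, 5 in heart without brain array 4. Myct1 was higher in heart by 2.18, Mcam by 1.37 and Ecscr by 1.03, and Flt1, a VEGF receptor, was higher in brain by 0.81.

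Of 19 vasoactive genes, which set the tone of vessels, 7 were higher in brain and 5 in heart. Ptgs2, the inducible cyclooxygenase, read 10.14, 10.96, 10.32, 10.45 and 10.74 in brain and 6.98, 6.07, 6.03, 6.38 and 5.86 in heart (19.2-fold). Edn1, the vasoconstrictor endothelin, was higher in brain by 2.69, and Edn3 by 1.25. The endothelin receptor Ednrb read 9.65, 9.07, 9.86, 9.60 and 9.47 in heart and 6.35, 6.05, 7.19, 6.32 and 6.66 in brain (8.09-fold), so ligand and receptor lay on opposite sides. Npr3, a clearance receptor for natriuretic peptides and a marker of endocardium, was higher in heart by 1.70, and Ramp3 by 1.22. Of 10 endocardial markers 5 were higher in heart, a count of 3 without brain array 3, heart array 1 or heart arrays 1 and 3. Another 2 were higher in brain, and the list mean was 6.601 in brain and 6.635 in heart.

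Of 21 proliferation genes 10 were higher in heart and 0 in brain (0 at an unadjusted p under 0.05), and the heart count was 6 without heart array 2. Top2a, a topoisomerase of dividing cells, read 5.82, 7.23, 5.70, 7.04 and 6.61 in heart and 4.44, 4.74, 4.37, 4.51 and 4.74 in brain, highest on heart arrays 2 and 4. Of 16 interferon response genes 5 were higher in brain and 2 in heart, and related genes lay on opposite sides: Ifit1 was higher in brain by 1.07 and Ifit2 higher in heart by 1.50. Of 14 antigen presentation genes 3 were higher in heart, 1 without brain array 3, heart array 2 or heart array 5 and 5 when the 10 brain and heart arrays alone were fitted, and 0 in brain (0 at an unadjusted p under 0.05). Of 26 immediate-early and heat shock genes 1, Hspb1, was higher in brain, and 0 in heart (1 at an unadjusted p under 0.05, and 1 called without brain array 4). The call of Hspb1 was lost without brain array 1, 2 or 4 or heart array 2, 3, 4 or 5, whereas without heart array 1 the list had 5 members higher in brain and without heart arrays 1 and 3 it had 10. Ier3 read 10.44, 7.57, 9.04, 7.83 and 7.64 on heart arrays 1 to 5, highest on array 1, and 9.79, 9.33, 9.71, 9.50 and 9.92 in brain.

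**Figure D5:**
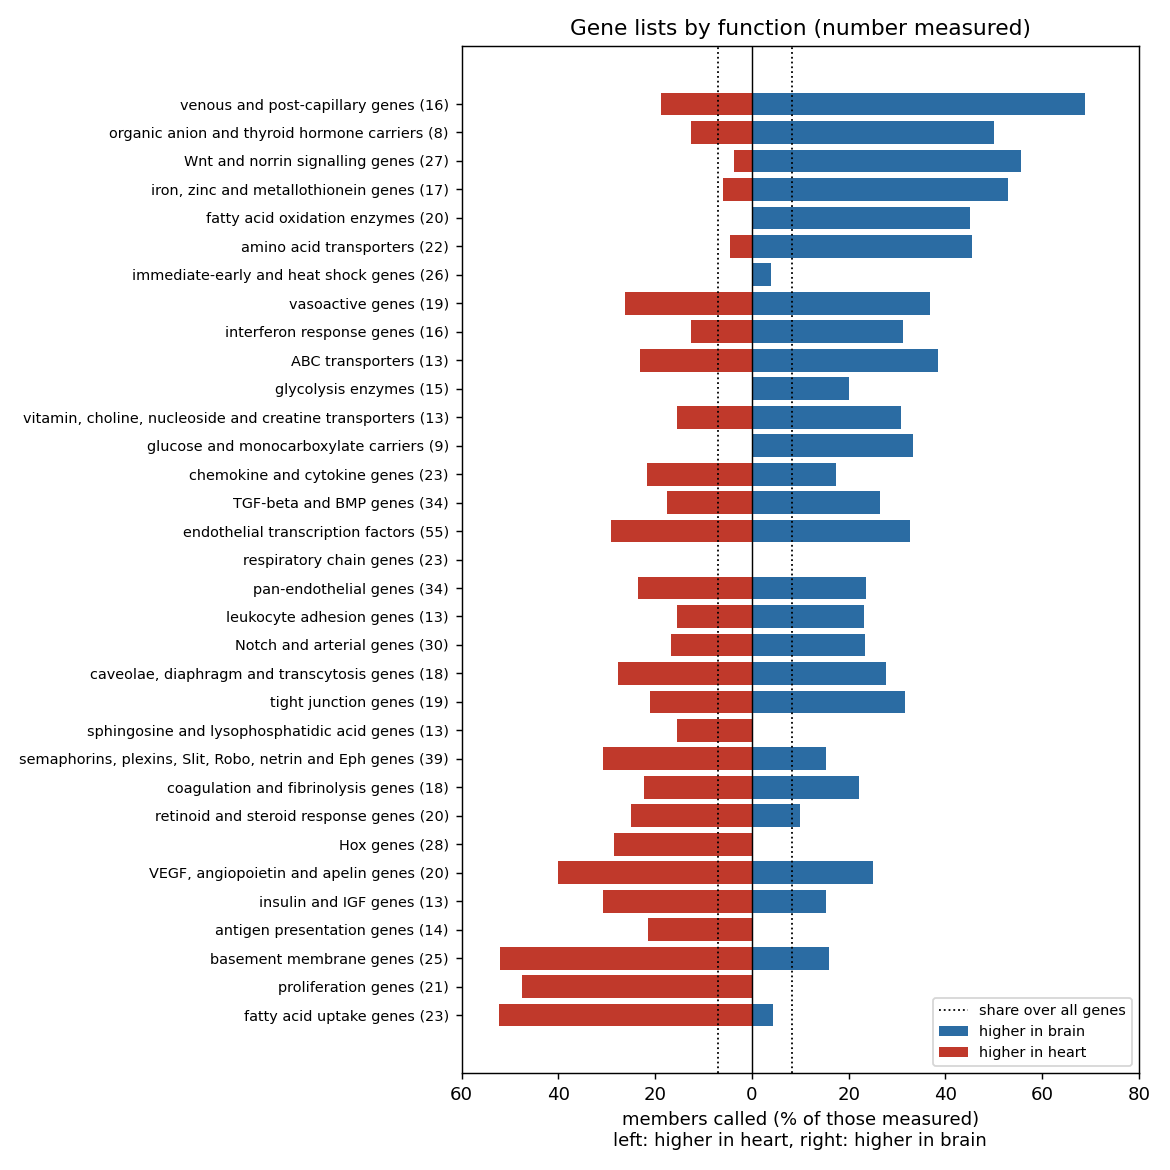
Share of the measured members of each function list (%) called higher in brain (blue, to the right) or higher in heart (red, to the left), ordered by the list's median difference, with dotted lines at the shares over all genes, 8.29% and 7.11%. The venous list lies at the top with 11 of 16 members higher in brain and the fatty acid uptake list at the foot with 12 of 23 higher in heart. The lists were chosen with earlier results of these data known.

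Of 18 coagulation and fibrinolysis genes 4 were higher in each direction, with Plat, tissue plasminogen activator, toward brain by 1.02 and Plau, urokinase, toward heart by 1.12. Of 23 chemokine and cytokine genes 4 were higher in brain, led by Ccl19 at 1.31, and 5 in heart, led by Cxcr4. Of 13 leukocyte adhesion genes 3 were higher in brain and 2 in heart, 1 of which, Jam2, lost its call without brain array 1, 3, 4 or 5 or heart array 3, 4 or 5. Of 20 retinoid and steroid response genes 2 were higher in brain and 5 in heart. Over all genes 8.29% were higher in brain and 7.11% in heart, and no list in this paragraph was tested against those shares. Aldh1a1, which makes retinoic acid, was higher in brain by 3.44 and Stra6, the receptor for retinol binding protein, by 1.68. Of 13 sphingosine and lysophosphatidic acid genes 2 were higher in heart, the lipid phosphatases Plpp3 by 2.16 and Plpp1 by 1.53, and 0 in brain (0 at an unadjusted p under 0.05).

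Among genes with a 95% interval within ±0.5, the 10 with the highest means were Baiap2l1, Eef1a1, Rps4x, Tpt1, Gas5, Sparc, Rn7sk, Sptbn1, Rps6 and Myl6. Eef1a1, a translation elongation factor, had means of 12.57 in brain and 12.78 in heart. Sparc, a matrix protein made in quantity by endothelium, had means of 12.62 and 12.51. Rps4x passed the test all the same, with a difference of 0.23 toward heart (adjusted p = 0.035, limma), lost in 8 of the 10 analyses that left out an array. Baiap2l1, Eef1a1 and Gas5 also changed their side of the threshold in at least 1 of the 20 alternatives.

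A few called genes with a difference of at least 1 varied strongly within the tissue in which they were higher. In brain the largest SDs belonged to Lcn2, Slc4a10, Mia, Tecrl and Arhgap20. Slc4a10, a bicarbonate transporter known from choroid plexus, read 7.47, 5.57, 6.02, 5.02 and 5.05 and Mia read 7.69, 6.04, 5.90, 5.67 and 5.17; both were highest on brain array 1, which was also highest for the choroid plexus list. Lcn2, lipocalin, read 4.71, 5.51, 8.40, 6.84 and 5.96 and peaked on array 3 instead. In heart the largest SDs belonged to Tnfsf9, Pmp2, Fabp9, Dpt and Cox7a1. Tnfsf9, a ligand of the TNF family, read 9.58, 4.92, 6.24, 5.43 and 4.58, far higher on array 1 than on the others. Dpt, a fibroblast matrix gene, read 9.49, 7.49, 8.95, 7.61 and 5.53 and Cox7a1, a respiratory subunit of muscle, read 10.19, 8.28, 8.71, 7.09 and 6.41; both were high on arrays 1 and 3 and lowest on array 5. Lcn2, Mia, Slc4a10, Tnfsf9 and Cox7a1 changed their side of the threshold in at least 1 alternative.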

How the data were processed

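RNA from sorted endothelial pools was measured on single-colour Affymetrix mouse arrays. The deposited log2 values were made by the authors with RMA in Affymetrix Power Tools, per the submitters' processing notes; neither their versions, nor the genome build, nor the set of arrays normalised together is given in the sources used here. RMA gives no read depth, so the number of arrays limits the precision.

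Of 35556 probe sets, 21789 had 1 gene symbol in the platform annotation, 1621 had several and 12146 were not listed. For 999 genes with several probe sets the one with the highest mean was kept. limma 3.58.1 in R 4.3.3 fitted brain, heart and liver (12 residual and 4.75 prior degrees of freedom) with Benjamini-Hochberg adjustment over all 19938 genes, and a call is an adjusted p under 0.05. The code was tested on simulated data.

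Named genes are the 15 with the largest differences per direction among called genes on no marker list whose arrays did not overlap, the 5 per direction with the largest SD in their higher tissue among genes called with a difference of at least 1, the 10 genes with the highest means whose 95% interval lay within ±0.5 and up to 6 members of each list, with some of those whose call 1 array changes. Other members whose call is lost without 1 array count in the lists unnamed, among them Fth1, Pdgfrb, Hoxa4, Cd93 and Mmrn2. The members and lists were chosen with earlier results of these data known; Cav1, Plvap, Slc1a5, Slc27a1, Slc27a3, Slc27a4, Slc30a1, Foxq1, Fzd4, Tspan12, Ctnnb1, Fabp3, Tcf15, Slc39a14, Far1, Mboat1, Mboat2 and the members that make up a count of 1 to 3 were named after their values were seen. Alternatives changed the arrays fitted, the probe set, the scaling, the filter and the test, and left out each array. Promoters came from RefSeq GRCm38.p6.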

Additional observations from a re-analysis of the deposited data

Results flagged for a closer look

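In 6 of 118 groups of 5 arrays examined, 1 array lay farther from the other 4 than a Dixon test at the 95% level allows, and chance flags about 1 in 20 groups. For 3 leading heart genes the array that stood out lay on the side away from the other tissue. Car8 read 11.026 on heart array 2 against 10.65 to 10.73 on the other heart arrays. Lpl, the lipoprotein lipase, read 5.257 on brain array 2, the lowest brain value, where the highest was 7.01. Gpihbp1, the anchor of that lipase, read 5.882 on brain array 1, the lowest brain value, where the highest was 7.28.

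The other 3 concern marker lists, and all 3 had brain array 1 as the highest brain array. Its mean was 6.261 for the astrocyte markers, 7.444 for the choroid plexus and ependymal markers and 6.018 for the fibroblast markers. The pericyte and smooth muscle mean of the same array, 7.63, was also the highest of the brain arrays. Their part in the differences between brain and heart was not tested beyond leaving out that array, after which 1452 genes were higher in brain and 1261 higher in heart.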

How the results depend on the processing

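The counts of called genes stayed within 1.5 times the reported 1652 and 1418 under all 20 alternatives. Leaving out 1 array at a time gave 1446 to 1659 genes higher in brain and 1229 to 1348 higher in heart. Fitting the 10 arrays alone gave 1639 and 1401, quantile normalisation 1424 and 1570, centring on pan-endothelial genes 1618 and 1077, centring on the array median 1732 and 1278, and requiring a mean of at least 6 gave 1654 and 1215. The share of calls on the brain side was 53.8% as reported and 47.6% to 60.0% under the scalings. Without heart arrays 1 and 3 the counts were 1427 and 1198. With the replicate number as a block they were 1799 and 1570. The main fit used no pairing, since nothing beyond the numbered titles describes one. Deviations from the tissue means were correlated between each brain and each heart array. The 5 same-numbered pairs gave -0.001 to 0.183 (median 0.095) and the 20 others -0.152 to 0.126 (median -0.016). Arrays 1, 2 and 5 of each tissue correlated best with their own number. Brain array 3 and heart array 4 were each other's best (0.100), as were brain array 4 and heart array 3 (0.126). Whether such pools shared a batch was not tested. For the 935 named or listed genes there were 18469 pairs of a gene with an alternative. Of these 17427 kept direction and side of the threshold, 337 lost a call and 217 gained one. In 488 the difference changed its sign where neither fit called the gene, and in 0 it changed sign where either fit did. The cause was not tested. The limits are 5 pools a tissue, no detection calls, and tissue, digestion and pool size that change together.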

Other observations

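A set of 35 phospholipid and sphingolipid enzymes, put together after the values were seen, held 19 genes higher in brain and 6 higher in heart, with a median difference of 0.46 against -0.03 for all genes. Atp10a, a flippase for phosphatidylcholine, read 10.16, 9.90, 9.98, 10.37 and 10.25 on brain arrays 1 to 5 and 5.33, 5.58, 5.67, 5.71 and 5.35 on heart arrays 1 to 5 (24.3-fold). Degs2, which makes the phytoceramide form of sphingolipids, was higher in brain by 4.33, Far2, which reduces fatty acids to alcohols, by 4.22, Sgms2, a sphingomyelin synthase, by 3.93 and Elovl7, a fatty acid elongase, by 3.58. The tissues did not overlap for any of these 5. Within some families the members differed in opposite directions: Far1 was higher in heart by 0.31 and Mboat2 by 1.09, whereas Mboat1 was higher in brain by 2.65. Of 26 enzymes that act on amines, choline esters and drugs, chosen in the same way, 12 were higher in brain and 5 in heart. Ddc, which makes dopamine and serotonin from their amino acid precursors, read 10.20, 9.82, 10.12, 10.28 and 10.60 in brain and 4.96, 5.17, 5.29, 5.25 and 5.50 in heart (31.4-fold). The neighbouring genes Maoa and Maob, whose products break these amines down, were 7.77-fold and 7.99-fold higher in brain (adjusted p = 1.47e-10 and 1.36e-10, limma).

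Among 26 imprinted genes, also chosen after the values were seen, 10 were higher in heart and 1, Asb4, in brain, where the count was 2 without brain array 2, 4 or 5, with a median of -0.15. Airn, the long RNA that silences Igf2r on the paternal copy, read 9.97, 10.39, 9.87, 10.30 and 10.12 in heart and 6.78, 7.46, 7.09, 6.36 and 6.56 in brain, a difference of 3.28 (9.71-fold). Igf2r, which overlaps Airn on the opposite strand, read 8.83, 8.99, 9.07, 8.96 and 9.05 in heart and 7.21, 6.82, 7.21, 7.08 and 7.06 in brain and was higher in heart by 1.91, so that both transcripts of the locus differed in the same direction. Mest and Sgce were higher in heart by 2.67 and 2.44. Dcn, the largest difference of this set at 3.38, is a fibroblast gene, and the fibroblast list mean was 6.46 to 7.53 in heart against 5.63 to 6.02 in brain; its part in the other imprinted genes was not tested.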
